A study of Mus musculus with 11 samples.

Results

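Collagen maturation enzymes and chaperones are the proteins that turn newly made collagen chains into a secreted, cross-linkable molecule. The 10 genes described here are Plod1, Plod2, Plod3, P4ha1, P4ha2, P4hb, Pcolce, Bmp1, Serpinh1 and Sparc, chosen by name from a table of 14602 genes, and all 10 were present in it. They were measured in RPE/choroid of C57BL/6J mice, the retinal pigment epithelium with the vascular layer beneath it, by bulk RNA sequencing of RNA pre-amplified with a SmartSeq kit. The 6 naïve control libraries came from age-matched mice without laser, aged 12 months. The 5 laser treated libraries came from mice that received subthreshold nanosecond (2RT) laser at 9 months of age, in 1 eye per the study's methods, and whose tissue was taken 3 months later, also at 12 months. The study's methods give n = 6 for each group, and why the laser treated group holds 5 here is not given in the sources used. The labels name no allele. Per the study's methods, ketamine and xylazine, a topical corneal anesthetic and atropine drops were given before the laser, and whether naïve controls received them is not given in the sources used here. The laser spots covered only part of the central retina, whereas each library holds the whole RPE/choroid sample, so cells beside and away from the spots were measured together. The sources used here do not state that each library came from its own animal, so p-values measure only the spread between these libraries, which may be technical.

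Collagen chains are modified in the endoplasmic reticulum before 3 of them wind into a triple helix. Prolyl 4-hydroxylase, a complex of an alpha subunit (P4ha1 or P4ha2) with protein disulfide isomerase (P4hb), hydroxylates prolines and stabilizes the helix, while the lysyl hydroxylases (Plod1, Plod2 and Plod3) prepare lysines for glycosylation and cross-linking. Serpinh1 (HSP47) binds the folded procollagen on its way through the secretory pathway, Bmp1 cuts off the C-terminal propeptide with help from the enhancer Pcolce, and the matricellular protein Sparc binds collagen outside the cell. In the back of the eye, collagens are components of Bruch's membrane, the layered matrix between RPE and choriocapillaris, and of the choroidal stroma.

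The libraries held between 25700881 and 38755994 counts in total, without separation of the groups (exact two-sided permutation test, p = 0.528). The tissue label was checked against marker genes. The 12 listed RPE markers summed to between 77717 and 131919 CPM (counts of a gene in every 1000000 counts of its library, after TMM normalization), with Rpe65 at 7718 to 15720 CPM, and the sums overlapped between groups (exact two-sided permutation p = 0.634). Rgr alone lay at 44871 to 80080 CPM, so the sums mostly follow this gene. In the edgeR comparison below, 2 of the 12 had an unadjusted p under 0.05, against 15.9% of all genes. These were Slc16a8 (log2 fold change 0.50) and Mitf (-0.49). Of the 12, only Best1, a chloride channel, was at 0 in any library, in 3 of 11, and it reached at most 3.08 CPM. Markers of neural retina, which was removed before extraction, summed to between 3581 and 20338 CPM (exact p = 0.496). Laser treated library 5 held the most melanocyte, surface epithelium and blood marker RNA of its group, and naïve control library 6 had the highest share of coverage on genes among the controls, so the counts of genes past a threshold are also given without both. The 2 were thus picked by different rules. Laser treated library 4, with a higher share (91.4%), and naïve control library 4, with the most melanocyte marker RNA of its group, were kept. In a bulk sample, fewer cells of a type cannot be told apart from less RNA per cell. Each deposited transcript file opens with a label, which was R1 for 3 of the controls and 2 of the laser treated libraries and R2 for the remaining 3 of each group. The meaning of this label is not given in the sources used here, so differences are also given within each label.

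The promoters of the members that can be shown are the 250 bases upstream of the RefSeq transcription start on GRCm38.p6. Entries were found for 8 of the 10 genes, those other than Plod2 and Bmp1. Printed here are the 4 whose genes had an unadjusted p under 0.05 in the comparison below, together with that of Serpinh1, the collagen-specific chaperone. The sequences run 5′ to 3′ on the strand of the gene and end at the base before the start. Capitals mark matches on either strand to CCAAT, to GGGCGG (the GC box), to TATAAA, to ACGTG (the core of several endoplasmic reticulum stress and hypoxia elements) and to GAANNTTC (a pair of inverted heat shock repeats). Plod1 is at chr4:147936777-147937026, P4hb at chr11:120573254-120573503, Pcolce at chr5:137611405-137611654, Sparc at chr11:55420081-55420330 and Serpinh1 at chr7:99353240-99353489, all on the minus strand.
Plod1: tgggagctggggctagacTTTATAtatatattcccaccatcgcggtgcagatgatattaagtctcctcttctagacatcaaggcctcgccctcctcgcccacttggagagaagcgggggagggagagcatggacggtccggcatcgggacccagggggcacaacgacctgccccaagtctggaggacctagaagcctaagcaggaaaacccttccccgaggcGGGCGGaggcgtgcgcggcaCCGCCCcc
P4hb: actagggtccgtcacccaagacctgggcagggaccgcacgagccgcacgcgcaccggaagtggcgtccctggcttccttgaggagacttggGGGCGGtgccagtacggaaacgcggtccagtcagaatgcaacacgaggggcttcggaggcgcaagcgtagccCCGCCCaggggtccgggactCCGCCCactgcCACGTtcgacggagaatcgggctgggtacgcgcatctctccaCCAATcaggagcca
Pcolce: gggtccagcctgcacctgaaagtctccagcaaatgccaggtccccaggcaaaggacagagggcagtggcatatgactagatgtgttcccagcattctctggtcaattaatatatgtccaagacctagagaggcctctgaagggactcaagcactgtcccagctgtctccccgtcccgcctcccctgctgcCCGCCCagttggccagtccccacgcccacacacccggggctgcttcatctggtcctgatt
Sparc: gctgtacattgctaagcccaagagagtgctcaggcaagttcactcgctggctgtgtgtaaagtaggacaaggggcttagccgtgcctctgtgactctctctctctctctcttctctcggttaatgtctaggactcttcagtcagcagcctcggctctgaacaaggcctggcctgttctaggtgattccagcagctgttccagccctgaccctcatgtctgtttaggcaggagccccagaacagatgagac
Serpinh1: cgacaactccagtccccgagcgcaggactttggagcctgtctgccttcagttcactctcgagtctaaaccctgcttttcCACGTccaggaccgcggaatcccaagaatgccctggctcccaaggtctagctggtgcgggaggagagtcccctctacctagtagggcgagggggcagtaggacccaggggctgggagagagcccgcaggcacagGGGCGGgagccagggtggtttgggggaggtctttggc

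GGGCGG was found in 6 of the 8 member promoters (Plod1, Pcolce, Serpinh1, P4ha1, P4ha2 and P4hb) and in 32.9% of the 27025 promoters of the same length. ACGTG was found in 5 (Plod3, Serpinh1, P4ha1, P4ha2 and P4hb), against 16.6% of all promoters. In Serpinh1 it began 171 bases upstream of the start and in P4hb 56 bases. CCAAT was present in Plod3 and P4hb, 2 of 8 against 34.5% of all promoters, and in P4hb it began 14 bases before the start. TATAAA was present in Plod1 alone, at 232 bases upstream, against 13% of all promoters. GAANNTTC was in none of the 8 windows and in 6.78% of all promoters. The Sparc window held none of the 5 motifs, which says only that these letters do not occur in it.

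Ordered by level per length, the secreted proteins Pcolce and Sparc came first and the lysyl hydroxylase Plod2 last. Levels between genes are given as CPM per kilobase of the longest protein-coding transcript, as the mean of 11 libraries with its SD. Pcolce was the most abundant at 325 ± 67.8 CPM per kilobase, above Sparc at 134 ± 41.9 in all 11 libraries. Serpinh1 (49.3 ± 19.2) and P4hb (44.0 ± 7.77) followed, and these neighbors were not separated, since Serpinh1 exceeded P4hb in 7 of 11 libraries. P4hb also serves as a general disulfide isomerase, and stood above both alpha subunits in level.

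**Figure D1:**
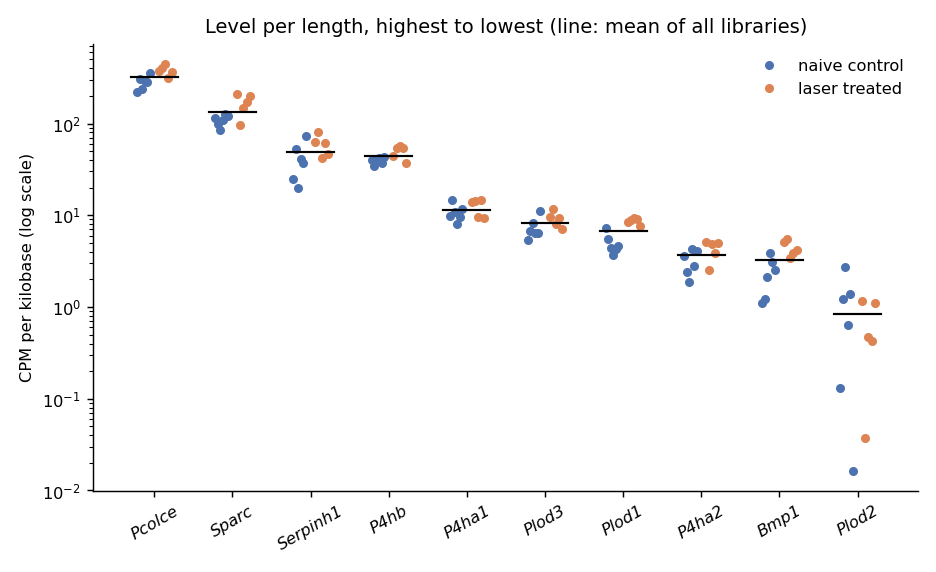
Level of each gene per length, in CPM per kilobase on a log axis, with 1 point for each naïve control (blue) and laser treated (orange) library and a line at the mean of all 11. Pcolce lies highest with a mean of 325, and Plod2 lowest with a mean of 0.844 and the widest spread.

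P4ha1 had a level of 11.5 ± 2.47 CPM per kilobase, below P4hb in all 11 libraries. Plod3 (8.16 ± 2.01) and Plod1 (6.65 ± 2.2) came next, with Plod3 above Plod1 in 8 of 11 libraries. P4ha2 stood at 3.68 ± 1.13 and Bmp1 at 3.28 ± 1.44, and P4ha2 was above Bmp1 in 7 of 11. The order of this last pair turned when the length of all exonic bases was used instead, while the other 8 genes kept their ranks. Plod2, the telopeptide lysyl hydroxylase, was the lowest at 0.844 ± 0.793 and lay between 2 and 308 counts in single libraries.

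The comparison of laser treated with naïve control libraries asked whether any of these genes differed in aged RPE/choroid 3 months after the laser. Of the 10 genes, 9 had a higher fitted level after laser (48.5% of all genes tested did) and 1, Plod2, a lower one. No member passed an adjusted p of 0.05 in edgeR's quasi-likelihood test, and neither did any of the 14602 genes (0%, with 2325 at an unadjusted p under 0.05), the smallest adjusted p of any gene being 0.061. At an unadjusted p under 0.05 there were 5 members, Plod1, P4hb, Pcolce, Bmp1 and Sparc, all higher in laser treated samples, against 15.9% of all genes in either direction and 8.24% higher. The median log2 fold change of the 10 was 0.42, beside -0.02 for all genes. With DESeq2, which called 547 genes or 7.88% of the 6946 for which it gave an adjusted p, Plod1 and Sparc passed. It gave no adjusted p for Bmp1, P4ha2 and Plod2.

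**Figure D2:**
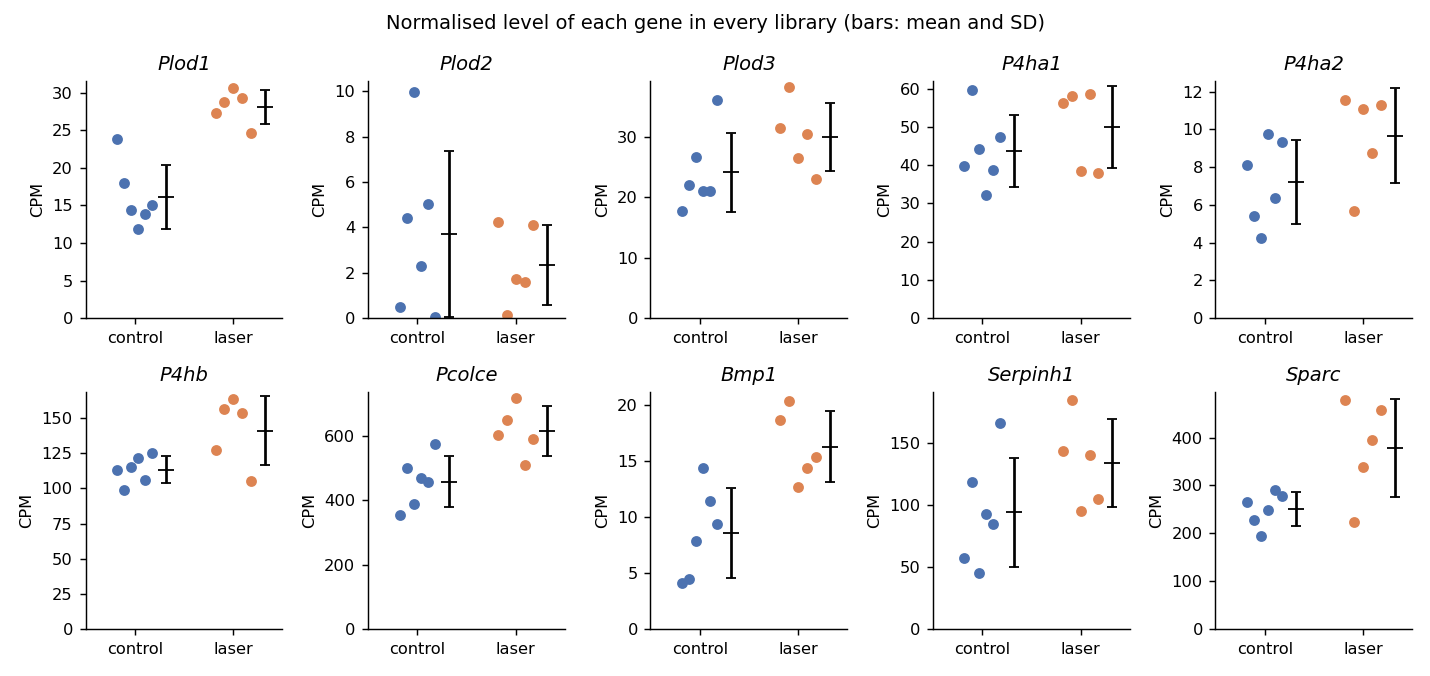
CPM of each gene in every library, with the points of the 6 naïve control (blue) and 5 laser treated (orange) libraries and the mean with SD beside them. Only for Plod1 do the groups not overlap, with the laser treated libraries at 24.6 to 30.6 CPM and the highest control at 23.8.

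Among the lysyl hydroxylases, Plod1 was the member whose groups separated. This enzyme hydroxylates lysines in the helical part of collagen. Naïve control libraries ranged from 11.8 CPM through a median of 14.7 to 23.8 CPM, and laser treated libraries 1 to 5 held 27.2, 28.8, 30.6, 29.2 and 24.6 CPM. Every laser treated library lay above every control. Of all genes, 1.4% were separated in this direction and 2.26% in either. The means were 16.2 ± 4.24 (SD, n = 6) and 28.1 ± 2.30 CPM (SD, n = 5), which is 1.74-fold on the fitted scale (log2 fold change 0.80, SE 0.19, edgeR adjusted p = 0.172). The adjusted p of Plod1 was 0.0147 with DESeq2. Within label R1 the difference in mean log2 CPM was 0.61, and within R2 it was 1.05.

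Plod3, which also carries the glucosyltransferase activity that completes the collagen sugar, overlapped widely between groups. Controls ranged from 17.7 through a median of 21.5 to 36.1 CPM, and laser treated libraries held 31.5, 38.2, 26.5, 30.5 and 23.1 CPM. All 5 laser treated libraries were above the control median and 1 above the highest control. The log2 fold change was 0.31 (SE 0.20, edgeR adjusted p = 0.5), with 0.66 within R1 and 0.07 within R2. Exons of Plod3 share 529 bases with those of Znhit1 on the opposite strand, so reads there may not be told apart if counting did not use strand.

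Plod2 was too variable to compare. Controls ranged from 0.0604 through 3.37 to 9.95 CPM, and the laser treated values were 4.24, 0.136, 1.71, 1.58 and 4.09 CPM. Libraries near 0 occurred in both groups. The log2 fold change of -0.66 had an SE of 0.99 (edgeR adjusted p = 0.821), and it had opposite signs within R1 (-1.66) and within R2 (1.02).

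The prolyl 4-hydroxylase subunits showed smaller differences. For P4ha1, the main catalytic subunit, controls ranged from 32.3 through 42.1 to 59.6 CPM, and laser treated libraries held 56.3, 58.2, 38.6, 58.6 and 38.0 CPM. No laser treated library exceeded the highest control, and 3 of 5 were above the control median. Its log2 fold change was 0.19 (SE 0.19, edgeR adjusted p = 0.684), with 0.11 when naïve control library 4 was left out and 0.30 when naïve control library 2 was.

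P4ha2, the alternative catalytic subunit, ranged from 4.26 through 7.22 to 9.77 CPM in controls. The laser treated libraries held 11.5, 5.68, 11.1, 8.77 and 11.3 CPM, of which 3 were above every control and 1 near the bottom of the control range. The log2 fold change was 0.42 (SE 0.30, edgeR adjusted p = 0.543).

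P4hb, the disulfide isomerase subunit, ranged in controls from 99.0 through 114 to 125 CPM. Laser treated libraries held 128, 157, 163, 153 and 105 CPM, so that 4 lay above all controls and library 5 among them. The means were 113 ± 9.62 (SD, n = 6) and 141 ± 24.3 CPM (SD, n = 5), or 1.25-fold as fitted (log2 fold change 0.32, SE 0.13, edgeR adjusted p = 0.251). Within R1 and R2, the differences in mean log2 CPM were 0.38 and 0.24 for P4hb, 0.28 and 0.18 for P4ha1, and 0.49 and 0.31 for P4ha2.

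Among the propeptide processing members, both the protease and its enhancer were higher in most laser treated libraries. Bmp1, the procollagen C-proteinase, ranged from 4.08 through 8.59 to 14.4 CPM in controls and was 18.6, 20.4, 12.7, 14.4 and 15.3 CPM after laser. All 5 were above the control median, and 3 were above the highest control. The means of 8.59 ± 4.01 (SD, n = 6) and 16.3 ± 3.17 CPM (SD, n = 5) gave a log2 fold change of 0.92 (SE 0.33, 1.89-fold, edgeR adjusted p = 0.214). This was the highest fitted fold of the 10 genes. The difference in mean log2 CPM was 1.89 within R1, with 3 control and 2 laser treated libraries, and 0.28 within R2. Whether the labels differed in this respect was not tested.

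Pcolce controls ranged from 355 through 462 to 574 CPM, and laser treated libraries held 601, 650, 719, 510 and 591 CPM. Library 4 alone fell below the highest control. With means of 457 ± 78.5 (SD, n = 6) and 614 ± 77.1 CPM (SD, n = 5), the log2 fold change was 0.43 (SE 0.14, 1.34-fold, edgeR adjusted p = 0.185). Within R1 and R2 it was 0.61 and 0.27. Pcolce exons share 112 bases with those of Fbxo24 on the same strand, so a few of the reads may be uncertain between both genes.

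Of the collagen-binding proteins, Sparc was higher in 4 of the 5 laser treated libraries than in any control. Controls ranged from 195 through 258 to 292 CPM, and laser treated libraries held 479, 223, 340, 394 and 458 CPM. Library 2 lay within the control range, and the other 4 lay above all controls. The means were 251 ± 35.2 (SD, n = 6) and 379 ± 103 CPM (SD, n = 5), or 1.51-fold as fitted (log2 fold change 0.59, SE 0.18, edgeR adjusted p = 0.179). The adjusted p was 0.034 with DESeq2, and the differences in mean log2 CPM were 0.52 within R1 and 0.54 within R2. Within R1 the controls held 266, 228 and 195 CPM, so that of the 2 laser treated libraries of that label only library 1 (479 CPM) lay above them and library 2 (223 CPM) lay among them.

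Serpinh1 differed between the groups by less than the SD of 0.57 in log2 CPM within them. Controls ranged from 44.9 through 88.6 to 167 CPM, and laser treated libraries held 144, 184, 95.1, 141 and 104 CPM. All 5 were above the control median, but only 1 above the highest control. The log2 fold change was 0.51 (SE 0.29, edgeR adjusted p = 0.429), with 1.28 within R1 and 0.03 within R2, a contrast between labels that was not tested.

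Base composition moved with the fold changes. Over the 14252 genes with a GC content, the log2 fold change rose with the GC percentage of the longest annotated transcript of the gene (across genes, Pearson r 0.37, Spearman rho 0.46, genes not being independent), and 8 of the 10 members lay above the median GC of 49.8%. The exceptions were Plod2 at 43.0% and P4ha1 at 45.7%. Genes within 1 percentage point of the GC content of Plod1 (52.7%) had a median log2 fold change of 0.18, and those around Plod3 (57.8%) of 0.30, beside 0.31 for Plod3 itself. After a GC trend was removed from each library, 3 members had an unadjusted p under 0.05, against 7.33% of all genes. These were Plod1 (log2 fold change 0.69, SE 0.20), Sparc (0.50, SE 0.18) and Bmp1 (0.75, SE 0.33). Pcolce went to 0.26 (SE 0.16) and P4hb to 0.18 (SE 0.14), whereas P4ha1 went from 0.19 to 0.38 (SE 0.22). The part of GC content in these differences was not tested further.

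**Figure D3:**
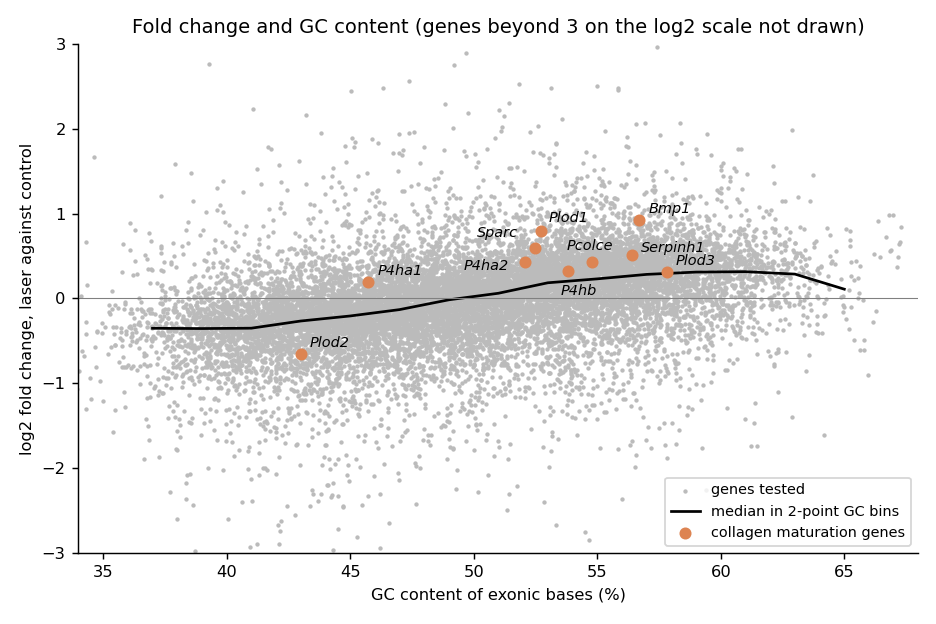
Log2 fold change of each gene tested (gray) and of the 10 members (orange) against the GC percentage of its longest annotated transcript (named exonic bases on the axis), with the median of all genes in bins of 2 percentage points (black line). The line lies below 0 at low and above 0 at high GC, and Plod1, Sparc and Bmp1 lie farthest above it among the members.

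The share of assembled coverage that fell on the genes of the count table also moved with some members. It was 82.9 to 89.1% in controls and 86.1 to 91.4% in laser treated libraries (means 85.5 ± 2.24 and 88.3 ± 2.46%, SD, n = 6 and n = 5, exact two-sided permutation test, p = 0.0801). Relations with this share were computed for the members alone, so no value over all genes stands beside them. Of 10 relations between this share and the log2 CPM of a member over 11 libraries, 9 were positive. That of Serpinh1 passed adjustment over the 10 (Pearson r = 0.84, permutation p = 0.00144, adjusted p = 0.0144, and Spearman rho = 0.85, permutation p = 0.00183, adjusted p = 0.0183). It remained 0.87 without the 2 libraries farthest from the median share, and was 0.78 (permutation, adjusted p = 0.0475) on deviations from the group means. The permutation of deviations did not allow for the group means removed, so that p is too small and a value this near 0.05 cannot be counted as passing. Within label R2 (n = 6) r was 0.84 (exact permutation p = 0.0389), and no correlation was computed over the 5 libraries of label R1. Ordered by share, from 82.9 to 90.4%, those 5 held 44.9, 56.9, 119, 144 and 184 CPM of Serpinh1, so the order by share and by CPM was the same. All controls of that label came before its laser treated libraries in this order, so share and group cannot be told apart within R1.

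With the share as a covariate, an alternative added after seeing the data, the log2 fold change of Serpinh1 was 0.06 (SE 0.23). Those of Plod1, Sparc and Pcolce were 0.89 (SE 0.23), 0.61 (SE 0.21) and 0.36 (SE 0.15), the 3 members with an unadjusted p under 0.05, against 5.84% of all genes. Bmp1 was 0.67 (SE 0.36). Plod2 turned to 0.86 with an SE of 1.21. Without naïve control library 6 and laser treated library 5, also added after seeing the data, 389 of 14563 genes (2.67%) passed the adjusted threshold in edgeR but none of the 10 did. There, 7 members had an unadjusted p under 0.05, against 20.3% of all genes. Control library 6 was the highest control for Serpinh1, Plod3, Pcolce and P4hb, and laser treated library 5 the lowest of its group for Plod1, P4hb, Plod3 and P4ha1. Plod3 and P4hb thus lost their highest control and their lowest laser treated library together. Without both libraries, the log2 fold changes of Serpinh1, Plod3 and P4hb went from 0.51 to 0.83, from 0.31 to 0.54 and from 0.32 to 0.44. Those of Sparc and Plod2 went down, from 0.59 to 0.55 and from -0.66 to -1.21.

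**Figure D4:**
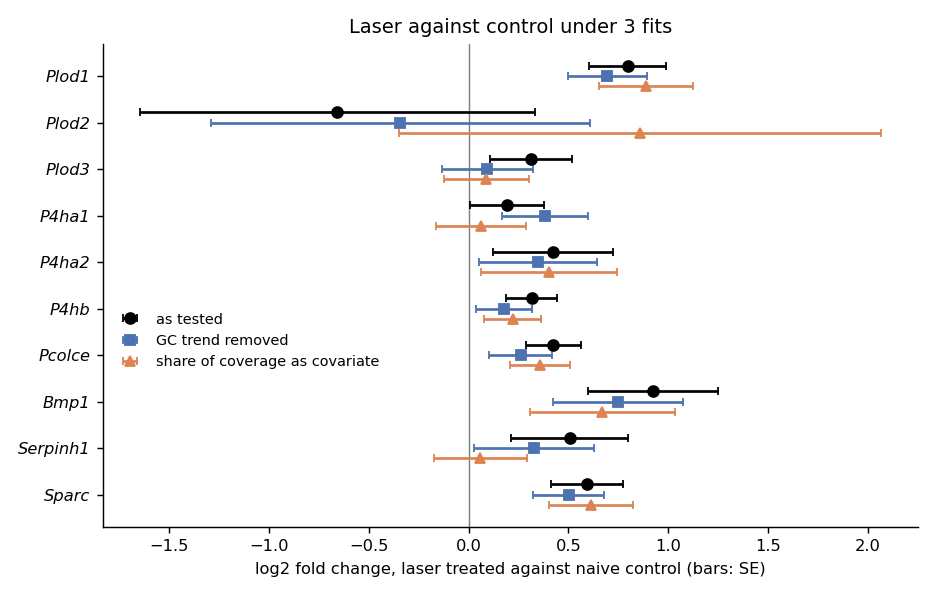
Fitted log2 difference between laser treated and control libraries for each gene, with its SE, as tested (black circles), after removal of a GC trend (blue squares) and with the share of coverage on genes as a covariate (orange triangles). Plod1 stays between 0.69 and 0.89, while Serpinh1 goes from 0.51 to 0.06.

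**Figure D5:**
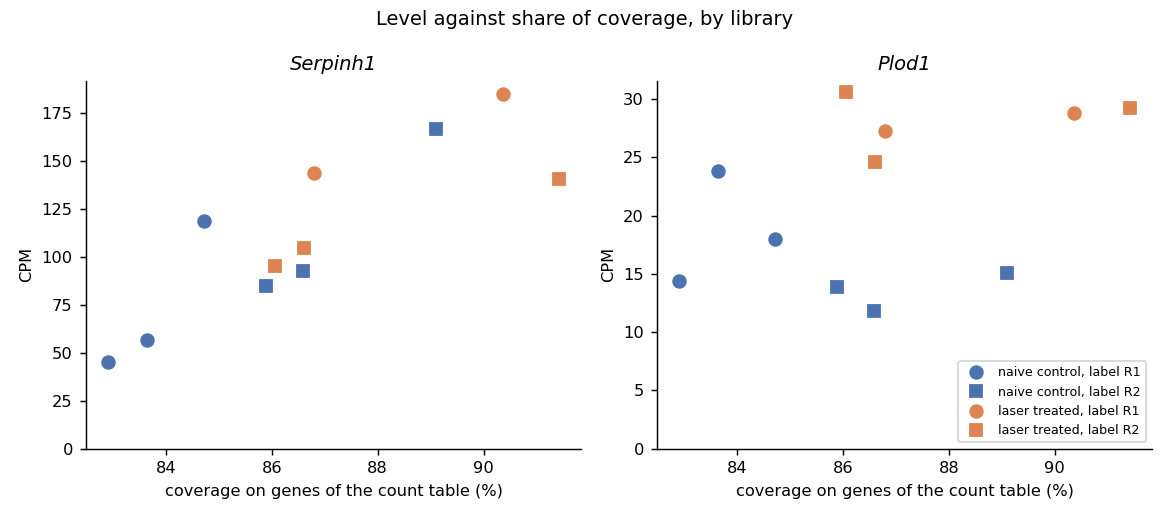
CPM of Serpinh1 (left) and Plod1 (right) against the share of assembled coverage on genes of the count table, with 1 point for each library, colored by group and shaped by label (circles R1, squares R2). Serpinh1 increases with the share across both groups, whereas for Plod1 the laser treated points lie above all control points.

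Another tally of the same reads, the depth of the assembled fragments over the terminal exon of each gene, gave the same direction for 9 of the 10 genes. It was scaled to the total assembled coverage of each library and is a description, not an independent measurement. The laser treated mean over the control mean was 1.70 for Plod1 (exon at chr4:147909753-147910874), 1.60 for Bmp1, 1.46 for Sparc and 1.34 for Pcolce. For Pcolce the groups did not overlap on this measure, unlike in CPM, and for Plod1 they did. How many of all genes separate on this measure was not computed, so the separation of Pcolce has no background beside it. P4ha2 had a ratio of 0.905 here, against a higher level in the counts. A fragment over the terminal exon of Plod2 was assembled in 7 of 11 libraries.

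The balance between the RNAs of partner proteins was compared within libraries as the log2 ratio of counts per kilobase, with 6 ratios, exact two-sided permutation tests over all 462 splits and Benjamini-Hochberg adjustment. None of the 6 differences passed. The ratio of P4hb to its alpha subunits together was 1.51 ± 0.26 in controls (SD, n = 6) and 1.56 ± 0.30 after laser (SD, n = 5, exact p = 0.771), and P4hb RNA exceeded that of both alpha subunits together, per kilobase, in every library. Protein was not measured. P4ha2 relative to P4ha1 was -1.80 ± 0.67 and -1.55 ± 0.67 (exact p = 0.565).

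Plod3 relative to Plod1 had a mean log2 ratio of 0.56 ± 0.59 in controls and 0.06 ± 0.24 after laser (exact p = 0.11, adjusted p = 0.331). With each library left out in turn, the difference of -0.50 ranged from -0.70 without naïve control library 1 (exact p = 0.0159) to -0.36 without naïve control library 6 (exact p = 0.198), and no other removal gave an exact p under 0.05. It was 0.056 within R1 and -0.97 within R2. Pcolce RNA exceeded that of Bmp1 in each library, by 7.04 ± 0.68 and 6.43 ± 0.34 (exact p = 0.0996, adjusted p = 0.331), and the difference of -0.61 ranged from -0.78 without naïve control library 4 (exact p = 0.0397) to -0.42 without naïve control library 2 (exact p = 0.183). It was -1.29 within R1 and -0.012 within R2. Serpinh1 RNA stood above that of its fibrillar collagen clients Col1a1, Col1a2 and Col3a1 as a sum by 2.80 ± 0.65 and 2.94 ± 0.55 (exact p = 0.714). Plod2 relative to Plod1 was -3.44 ± 2.74 and -4.42 ± 2.03 (exact p = 0.515).

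The members were then set against the level of fibrillar collagen RNA, which encodes a part of the substrates of these enzymes. Collagen IV genes were left out, although Col4a3 alone had a mean of 317 CPM in controls and 307 CPM after laser. The summed CPM of Col1a1, Col1a2, Col3a1, Col5a1 and Col5a2 ranged from 21.5 to 51.5 in controls and from 34.5 to 82.0 after laser. Among 20 relations of members with this sum or with the summed fibroblast markers, none passed adjustment, and r ranged from -0.46 to 0.59. The largest was Serpinh1 against fibrillar collagen (Pearson r = 0.59, permutation p = 0.0576, adjusted p = 0.833, and Spearman rho = 0.47). It was 0.28 without the 2 farthest libraries and 0.43 within R2 (n = 6, exact permutation p = 0.392). The 10 fibroblast markers summed to 146 to 661 CPM in controls and 160 to 673 CPM after laser (exact p = 0.732).

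Between the members themselves, 36 of 45 pairs had a positive correlation over the 11 libraries, and none passed adjustment over the 45. P4ha2 with Sparc was the closest pair (Pearson r = 0.81, permutation p = 0.00379, adjusted p = 0.171, and Spearman rho = 0.83, 0.69 without the 2 farthest libraries), followed by Pcolce with Serpinh1 (r = 0.74, permutation p = 0.0089, adjusted p = 0.2). When group means were removed, the median r fell to 0.00. Plod1 with Bmp1 then had r = -0.86 (permutation, adjusted p = 0.0252) and -0.70 without the 2 farthest libraries, although rho was -0.78 with an adjusted p of 0.284 (permutation). Within R2 this r was -0.87 (n = 6, exact permutation p = 0.0236). These permutations treated the deviations as free although the group means had been removed. Their p-values are therefore too small, and whether the pair would pass adjustment otherwise was not tested.

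Of 58 measured genes in the lists of related pathways, 36 had a higher and 22 a lower fitted level, where 48.5% of all genes were higher. None passed the adjusted threshold, and 6 higher and 3 lower had an unadjusted p under 0.05 (edgeR, against 8.24% and 7.68% of all genes). Their median log2 fold change was 0.14. All 9 fibrillar collagen genes had a higher fitted level (48.5% of all genes did), with a median of 0.59, but none had an unadjusted p under 0.05. Several were at low levels, among them Col11a2, Col5a3 and Col2a1 with control means of 0.683, 1.02 and 2.26 CPM. Col5a1 went from 2.20 ± 1.74 to 4.74 ± 1.00 CPM (SD, n = 6 and n = 5, log2 fold change 1.11, edgeR adjusted p = 0.341), Col1a2 from 15.3 ± 5.41 to 22.5 ± 9.49 CPM (0.56, edgeR adjusted p = 0.399), and Col11a2 from 0.683 ± 0.251 to 2.72 ± 2.2 CPM (1.99, edgeR adjusted p = 0.335). Collagen IV genes, which encode the network of basement membranes, were split into 2 higher and 4 lower with a median of -0.06. Here Col4a4 had a log2 fold change of 0.30 (edgeR adjusted p = 0.353), Col4a2 of 0.64 (edgeR adjusted p = 0.454) and Col4a3 of -0.05 (edgeR adjusted p = 0.941).

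Of the genes listed under prolyl 3-hydroxylation, among them the cyclophilin Ppib, 5 of 6 were higher. P3h3, listed under its older symbol Leprel2, went from 14.7 ± 4.88 to 25.4 ± 9.34 CPM (log2 fold change 0.78, edgeR adjusted p = 0.222). Ppib went the other way, from 96.1 ± 6.51 to 70.7 ± 20.9 CPM (-0.44, edgeR adjusted p = 0.246), and P3h4 (Leprel4) had 0.37 (edgeR adjusted p = 0.478).

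The third alpha subunit, P4ha3, was at 0 to 16 counts in the controls and at 58, 0, 186, 106 and 86 counts in the laser treated libraries. Laser treated library 2 and naïve control libraries 4 and 6 had none, for which 3 counts is the limit from counting error alone. The spread between libraries, 0 to 186 counts after laser, makes the true limit wider. Its fitted log2 fold change was 3.53 with an SE of 1.33 (edgeR adjusted p = 0.225) and depends on the prior count at such low levels. Colgalt1 (Glt25d1) and Colgalt2 (Glt25d2), the galactosyltransferases that act after the lysyl hydroxylases, had log2 fold changes of -0.06 and 0.27 (edgeR adjusted p = 0.904 and 0.918).

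Foldases and chaperones of the endoplasmic reticulum were split, with 4 higher and 5 lower. Fkbp9, a peptidyl-prolyl isomerase, went from 55.5 ± 15.4 to 82.0 ± 18.4 CPM (log2 fold change 0.56, edgeR adjusted p = 0.222) and the lectin chaperone Calr from 116 ± 23.1 to 149 ± 28.3 CPM (0.36, edgeR adjusted p = 0.293). Canx, the membrane-bound relative of Calr, went from 791 ± 113 to 657 ± 68.5 CPM (-0.27, edgeR adjusted p = 0.303), and its log2 fold change was 0.04 after the GC trend was removed. Of the 9 secretory export genes, 4 were higher and 5 lower, and Tmem38b, a cation channel of the endoplasmic reticulum, had -0.41 (edgeR adjusted p = 0.293), followed by Trappc2 with -0.29 (0.04 with the GC trend removed) and Mia3, the collagen cargo receptor, with -0.22.

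Of the other propeptide processing genes, 4 of 8 were measured, 1 higher and 3 lower, and the 3 with the smallest p were Adamts3 (log2 fold change -0.45), Pcolce2 (0.12) and Tll1 (-0.43). None had an unadjusted p under 0.05. Of the cross-linking lysyl oxidases, 4 of 5 were higher. Loxl1 went from 88.0 ± 16.5 to 119 ± 17.3 CPM (log2 fold change 0.44, SE 0.15, edgeR adjusted p = 0.197), while Loxl4 and Loxl3 had 0.53 and 0.32 (edgeR adjusted p = 0.458 and 0.857). In the Sparc family 5 of 7 were higher. Spock3, a testican, went from 15.6 ± 9.73 to 4.27 ± 3.01 CPM (-1.87, edgeR adjusted p = 0.315), and Smoc1 and Smoc2 had 0.39 and 0.66 (edgeR adjusted p = 0.564 and 0.831).

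Markers of other cell types were compared as summed CPM between the groups over 11 lists. The Schwann cell list, of which 5 of 6 genes were measured, differed at an unadjusted level, at 393 to 683 CPM in controls and 595 to 1298 CPM after laser (log2 difference 0.68, exact two-sided permutation p = 0.0152, adjusted p = 0.167). Fitted levels were higher for 3 of the 5, among them Sox10 (log2 fold change 0.62) and Mbp (2.22), against -0.05 for Pmp22 and -1.46 for Prx, which was at 0 in 2 libraries. Smooth muscle and pericyte markers summed to 183 to 290 and 223 to 339 CPM (exact p = 0.0714), endothelial markers to 98.4 to 313 and 167 to 479 CPM (exact p = 0.342), and melanocyte markers to 1115 to 2636 and 1078 to 2740 CPM (exact p = 0.788). Macrophage markers spanned 288 to 973 and 433 to 997 CPM (exact p = 0.446), skeletal muscle 32.3 to 402 and 46.9 to 566 CPM (exact p = 0.584), surface epithelium 257 to 1427 and 267 to 1327 CPM (exact p = 0.558) and blood 39.1 to 244 and 28.4 to 120 CPM (exact p = 0.145). The part of these cells in the differences of the members was not tested.

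Among the 14602 genes, those at a mean of at least 1 CPM were searched for the pattern over 11 libraries most like that of each member, by Pearson r of log2 CPM, as a description. For Plod1 these were Cdk5 (r 0.93), Npdc1 (0.91) and Armc5 (0.91). Pcolce was followed most closely by Mthfsd (0.98), Cd82 (0.97) and Slc25a39 (0.96), and Serpinh1 by Nprl3 (0.97), 9530068E07Rik (0.97) and Fads3 (0.97). Sparc was most like Klk6 (0.91), Capzb (0.89) and Tagln2 (0.89), Bmp1 like Fgfr1 and Fzd6 (each 0.92), and P4hb like Hsf1 (0.93), Ssrp1 (0.92) and Prkcsh (0.92). For P4ha1 they were Ndor1 (0.95), Hemk1 (0.92) and Mctp1 (0.91), and for P4ha2 Idh2 (0.92), Igtp (0.91) and Zfp82 (0.89). Plod3 was most like Ccnl2 (0.96), Ing4 (0.91) and Hsdl1 (0.91), and Plod2 like Slc6a15 (0.90), Gm4532 (0.90) and Atxn1l (0.88). No member was among the 3 closest genes of another.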

How the data were processed

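RPE/choroid RNA of C57BL/6J mice was pre-amplified with SmartSeq v4 and sequenced as 6 naïve control and 5 laser treated libraries. The authors deposited raw counts per gene for 14602 genes, without normalization. The submitters' processing notes name STAR 2.5.3a, featureCounts 1.5.3, StringTie 1.3.3, edgeR 3.22.3 and the builds mm10 and GRCm38, without their roles, and whether counting used strand is not given in the sources used here. Its columns of the authors' own comparison (log2 fold change, log2 abundance, F, p-value, FDR) were not used. For each library the authors also deposited a StringTie transcript file, an annotation of other kind with coverage and TPM for each assembled fragment, all with 1 exon.

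Genes were matched to GENCODE M21 (GRCm38) by Ensembl identifier (13045), older symbol (1197) or symbol (10), and 350 were not matched. TPM were summed per gene over exon-overlapping fragments. Groups were compared with edgeR 4.0.16 in R 4.3.3, by TMM normalization, filterByExpr (0 genes removed) and a robust quasi-likelihood test, with Benjamini-Hochberg adjustment over all genes. The method was tested on simulated data. Total counts of 25700881 to 38755994 per library set the counting error, and the SE beside each fold change gives the precision. Exact permutation tests over all 462 splits are two-sided and cannot go below p = 0.00216. Correlations used 100000 permutations. Python 3.11.15, pandas 2.3.3, numpy 2.4.6 and scipy 1.17.1 were used. Ratios added 0.5 counts to each gene.

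The 10 members and the lists of related genes and markers were chosen with earlier results of these data known. Of each related list the 3 genes with the smallest p are named, and for each member the 3 genes with the highest r, except where a gene is not reported here. Other genes were named with their values in view. The alternatives included DESeq2 1.42.0, other normalizations and filters, a fit without robust estimation, the label or replicate number as a term, a GC loess trend (span 0.3) removed, limma-trend 3.58.1 on log2 TPM, and each library left out in turn. A newer quasi-likelihood method, the share of coverage as a covariate and the removal of 2 libraries were added after seeing the data. The replicate numbers in the titles were not used to pair the libraries in the main test. Correlations of same-numbered deviations were -0.00925, 0.115, 0.28, -0.00936 and -0.00844, and those of other numbers lay between -0.198 and 0.228. The value of 0.28 was above all others, so these correlations cannot exclude a pairing. Promoters are RefSeq entries on GRCm38.p6.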

Additional observations from a re-analysis of the deposited data

Results flagged for a closer look

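In 58 groups of 5 or 6 values (members, ratios, marker sums, totals), 4 values stood far from the rest of their group by Dixon's criterion, where chance flags about 1 in 20. None was a value of a collagen maturation gene. Naïve control library 4 had 2636 CPM of melanocyte markers, and the other controls 1115 to 1614. Laser treated library 5 had 2740 CPM of melanocyte markers (the others 1078 to 1536), 1327 CPM of surface epithelium markers (the others 267 to 469) and 120 CPM of blood markers (the others 28.4 to 54.1). In this library Plod1, P4hb and Plod3 were the lowest of their group, at 24.6, 105 and 23.1 CPM, as was P4ha1 at 38.0 CPM. The part of these cells in the members' values was not tested.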

How the results depend on the processing

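Over 27 alternatives (26 for Plod2) the log2 fold changes ranged from 0.62 to 0.94 for Plod1, 0.48 to 0.73 for Sparc, 0.26 to 0.51 for Pcolce, 0.67 to 1.12 for Bmp1, 0.17 to 0.44 for P4hb, 0.06 to 0.83 for Serpinh1, 0.09 to 0.54 for Plod3, 0.06 to 0.42 for P4ha1, 0.23 to 0.57 for P4ha2 and -1.21 to 0.86 for Plod2, the only member to reverse, with the share of coverage as a covariate. Adjusted p passed 0.05 for Plod1 and Sparc with DESeq2 only, which gave no adjusted p for Bmp1, P4ha2 and Plod2. Genes passing numbered 547 with DESeq2 (members 2), 2 with at least 10 counts in every library, 2 in each limma-trend fit on TPM and 389 without naïve control library 6 and laser treated library 5 (related genes 1, Spock3 at -1.78, edgeR adjusted p = 0.0452). Genes at an unadjusted p under 0.05 numbered 1071 (members 3, related genes 5) after GC removal and 853 (members 3, related genes 4) with the share as a covariate. With each library left out in turn, 0 to 4 genes passed (4 without laser treated library 2), genes at an unadjusted p under 0.05 numbered 1685 to 2771, members 4 to 7 and related genes 2 to 11, with 2 without laser treated library 2 and 5 without library 3. The causes were not tested.

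The replicate block, whose pairing was not established, left 0 genes passing, with 2539 genes and 6 members at an unadjusted p under 0.05, and with GC removal 1424 genes, 3 members and 4 related genes. Under the block Colgalt2 (Glt25d2) was -0.87 and Col4a3 0.048, and with GC removal -0.82 and 0.060, Canx 0.077 and Trappc2 0.058. With GC removal alone Canx was 0.038 and Trappc2 0.041.

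Colgalt2 (Glt25d2) was -0.088 with the label and -0.19 with the share as covariates and -0.39 without both libraries. Col4a3 was 0.059 to 0.060 in the limma-trend fits and 0.080 without both libraries. With the share as a covariate Loxl3 was -0.42 and Smoc2 -1.69. With each library left out, ranges were -0.16 to 0.015 for Colgalt1, -0.26 to 0.64 for Colgalt2, -1.15 to 0.078 for Adamts3, -0.0036 to 0.19 for Pcolce2, -0.34 to 0.74 for Loxl3, -0.30 to 0.98 for Smoc2 and -0.20 to 0.039 for Col4a3.

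Log2 ratio differences with each library left out ranged from -0.70 to -0.36 for Plod3 to Plod1, -0.78 to -0.42 for Pcolce to Bmp1, -0.053 to 0.14 for P4hb to its alpha subunits and -0.059 to 0.31 for Serpinh1 to collagens. P4ha2 to P4ha1 was -0.098 from TPM. Within R1 Plod3 to Plod1 was 0.056, and within R2 Plod2 to Plod1 was 0.18 and Serpinh1 to collagens -0.40. On deviations from group means, r with fibrillar collagen was -0.093 for Bmp1, -0.11 for Pcolce, -0.038 for Plod3 and -0.14 for Sparc, and with fibroblast markers -0.087 for Pcolce and -0.076 for Plod1. Marker sums left out in turn ranged from -0.089 to 0.49 (fibroblast), -0.080 to 1.02 (skeletal muscle), -0.28 to 0.089 (melanocyte), -0.14 to 0.038 (RPE) and 0.22 to 0.40 (smooth muscle and pericyte).

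At this depth and spread, the log2 fold changes near 0.3 of P4hb and Plod3 had an SE of 0.13 and 0.20, and that of Plod2 one of 0.99, within which a difference of that size would lie.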
